A study of Mus musculus with 9 samples.

Results

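The immunity-related GTPases (IRG) are a family of interferon-inducible GTP-binding proteins, and 10 of its genes were followed through 9 RNA-sequencing libraries of mouse heart. The members were Igtp, Irgm1, Irgm2, Iigp1, Tgtp1, Tgtp2, Gm4841, Gm12250, Gm12185 and F830016B08Rik, which are 10 of the 53465 gene IDs counted. They were chosen by family name with earlier results of these libraries known, and their scaled read counts (CPM) over the 3 groups were the values that brought them forward. Member levels and differences are therefore given as a description with no p-value.

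The hearts were those of NOD-SCID mice throughout, a strain that is immunodeficient and lacks mature T and B lymphocytes. The sham group (3 libraries) had surgery without ligation, the ligation group (3 libraries) had a coronary artery tied off to cause an infarct, and the cells group (3 libraries) had the same ligation followed by implantation of FOXO3-GE-MPCs. By the labels the border zone of the infarct was sampled in every group, sham included, and the starting material was total RNA. Age, sex and time after ligation are not given in the labels, nor is what the implanted cells' name abbreviates. The labels name no group with other cells or with medium alone, so implantation as such and the kind of cell implanted cannot be told apart.

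IRG proteins defend mouse cells from within. Interferon-gamma, acting through its receptor, raises their transcription, and the effector proteins then load onto the vacuoles that hold intracellular parasites and bacteria and break them open. A second set of family members, the IRGM proteins, stays on the cell's own membranes and holds the effectors in their inactive form, and so keeps them off those membranes.

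Gene counts per library ran from 4549268 to 7515052, so that 3 reads, taken as the detection floor, equal 0.375 to 0.639 CPM. CPM puts the reads of each library on a common total after edgeR's TMM scaling. The file headers of sham replicates 1 and 2 share a name stem, as do those of ligation replicates 2 and 3. In cells replicates 2 and 3 the source field gives a different FOXO number from the title and treatment, which give FOXO3 and were followed. Nothing states that the libraries of a group came from separate animals, so p-values measure the spread between these libraries, which may be technical.

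The promoters of the members on chromosome 11 are shown first because they carry the binding motifs of the interferon pathway. RefSeq's table of promoters (GRCm38.p6, 250 bases before to 50 bases after the start site) matched 7 of the 10 members, not Gm4841, F830016B08Rik and Iigp1. Each promoter was searched on both strands for the gamma-activated site of interferon-gamma target genes (GAS, TTCNNNGAA) and for the core of the interferon-stimulated response element bound by IRF factors (ISRE core, GAAANNGAA). The windows read 5′ to 3′ on the gene's strand, and capitals mark the motif letters.
Igtp (chr11:58199491-58199550, plus strand): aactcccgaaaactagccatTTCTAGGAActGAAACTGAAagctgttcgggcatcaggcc
Irgm2 (chr11:58214882-58214941, plus strand): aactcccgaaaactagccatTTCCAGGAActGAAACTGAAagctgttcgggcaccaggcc
Tgtp1 (chr11:48992295-48992354, minus strand): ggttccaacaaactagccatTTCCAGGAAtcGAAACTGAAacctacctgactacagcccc
Tgtp2 (chr11:49064254-49064313, minus strand): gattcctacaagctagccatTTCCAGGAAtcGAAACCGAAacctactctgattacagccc
Gm12185 (chr11:48927229-48927288, minus strand): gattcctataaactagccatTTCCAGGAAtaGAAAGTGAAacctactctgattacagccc
Irgm1 (chr11:48871416-48871470, minus strand): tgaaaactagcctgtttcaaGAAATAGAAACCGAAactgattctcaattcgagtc
Gm12250 (chr11:58183733-58183826, plus strand): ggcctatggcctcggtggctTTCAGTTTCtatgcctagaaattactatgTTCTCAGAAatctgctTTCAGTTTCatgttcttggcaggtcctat

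A GAS lay in 6 of the 7 member promoters and an ISRE core in 7 of 7, with both in 6 of 7. Among all 32851 promoters of the same length, chromosome 18 included, 8.30% held a GAS, 8.56% an ISRE core and 1.07% both. In Igtp, Irgm2, Tgtp1, Tgtp2 and Gm12185 the GAS was followed, after 2 further bases, by the ISRE core, starting 45, 75, 88, 81 and 86 bases before the start site. That arrangement, noticed after the sequences were seen, occurred in 8 of the 32851 promoters (0.0244%), 5 of them these members. The 3 others were Adar, which edits double-stranded RNA, the olfactory receptor gene Olfr382 and LOC115488470. Adar, the one of the 3 that was tested, averaged 27.7 ± 2.67 CPM in sham, 28.9 ± 1.46 CPM in ligation and 28.5 ± 3.48 CPM in the cells group (SD, n = 3 each), and passed the test in no comparison. The windows of the 5 members with the GAS and ISRE core side by side are also much alike in the bases around them. They can therefore not be counted as independent occurrences. Irgm1 held 2 overlapping ISRE cores and no GAS in its window, and Gm12250 held 1 GAS between 2 ISRE cores. In the promoters of 5 further IRG genes outside the 10 members, again without chromosome 18, 0 GAS and 1 ISRE core were found. A match describes letters in these windows and does not show that a factor binds there. Of the 7 RefSeq start sites, that of Igtp is also the gene start in the GENCODE M21 annotation used for the positions that follow, and that of Tgtp2 lies 6 bases away. The distance is 263 bases for Irgm1, 1.93 kb for Tgtp1, 3.90 kb for Gm12250, 15.4 kb for Irgm2 and 65.0 kb for Gm12185.

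The 10 genes form 3 clusters (GRCm38). Irgm1 (chr11:48861968-48871683), Gm12185 (chr11:48904656-48992226), Tgtp1 (chr11:48985327-48994172) and Tgtp2 (chr11:49057194-49064206) lie on the minus strand within 202 kb of chromosome 11. Gm12250 (chr11:58187739-58189012), Igtp (chr11:58199556-58207591) and Irgm2 (chr11:58199618-58222782) lie on its plus strand within 35.0 kb. Gm4841 (chr18:60268305-60273272, minus strand), F830016B08Rik (chr18:60293380-60303016, plus strand) and Iigp1 (chr18:60376027-60392634, plus strand) lie within 124 kb of chromosome 18. GENCODE calls 9 of the members protein coding and Gm12250 a processed pseudogene, which RefSeq lists as a protein-coding gene with the synonym Irgb10.

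Some of these genes are so alike that reads cannot be assigned to them with certainty. Of the distinct 31-base stretches in the exons of Tgtp1, 84.4% also occurred in another gene, and of those in Tgtp2 90.5% did, nearly all of them in each other. The share was 28.5% for Gm12185, 18.4% for Gm4841, 15.9% for Igtp and 10.7% for Irgm2. It was 6.90% for Iigp1, 6.61% for F830016B08Rik and 2.21% for Irgm1, while Gm12250 shared 0.0%. Exons of Igtp and Irgm2 overlap on the same strand (8.01% and 4.39% of their bases), and so do those of Tgtp1 and Gm12185 (6.96% and 3.99%). How the authors' counting treated reads that fit several genes is not given in the sources used here; reads marked ambiguous between overlapping genes made up 8.09% to 8.72% of each library. Values for Tgtp1, Tgtp2 and Gm12185 are therefore uncertain as single genes.

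All 10 members stood highest in sham, lower after ligation and lowest in ligated hearts with cells. Their summed level was 1322, 1337 and 1398 CPM in sham replicates 1 to 3, 475, 472 and 477 CPM in the ligation replicates, and 180, 175 and 196 CPM in the cells replicates. The sums averaged 1352 ± 40.3, 475 ± 2.39 and 184 ± 10.8 CPM (SD, n = 3 each), which makes sham 2.85-fold above ligation, ligation 2.59-fold above cells and sham 7.37-fold above cells. No library of one group reached the range of another. In bulk tissue, fewer cells of a type and less RNA per cell cannot be told apart.

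**Figure D1:**
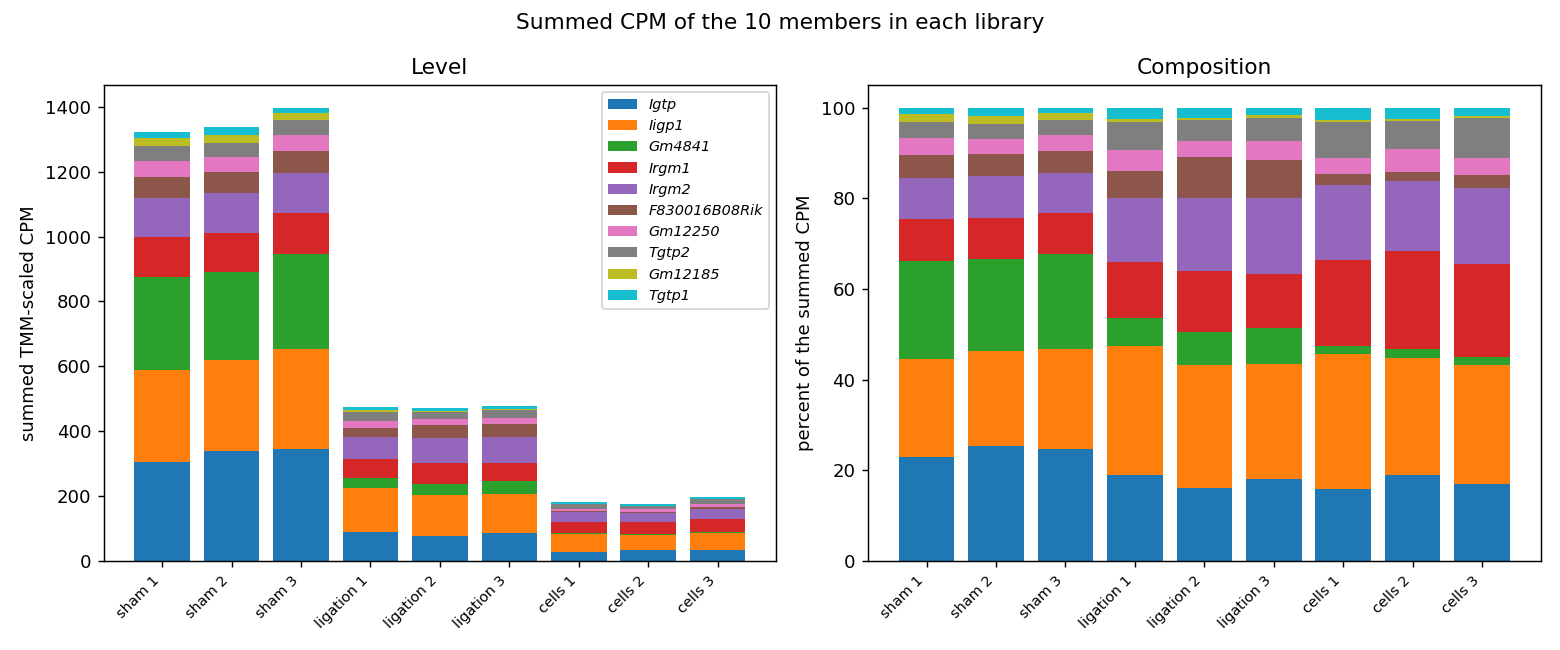
Summed CPM of the 10 IRG members in each of the 9 libraries as stacked bars, 1 colour per member (left), and each member's percent of that sum (right). The bars reach 1322 to 1398 CPM in sham, 472 to 477 CPM in ligation and 175 to 196 CPM in the cells group, and the part of Gm4841 shrinks from 21.1% to 7.10% and 1.83% on average.

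The fit tested 13825 genes with edgeR's quasi-likelihood test, calling a gene at a Benjamini-Hochberg adjusted p under 0.05. Every member entered it, and 9 of 10 had at least 10 reads in every library, the exception being Gm12185. In ligation against sham 10 of 10 members were called lower, where 18.0% of all tested genes were called lower and 20.1% higher. In cells against ligation 10 of 10 were called lower, where 5.69% of tested genes were lower and 4.19% higher. In cells against sham 10 of 10 were called lower, where 20.0% were lower and 21% higher. The median log2 difference over the members was -1.11, -1.36 and -2.60 in these comparisons, and 0.01, 0.00 and -0.01 over all tested genes. Since the members were selected on these contrasts, nothing is read from those counts. The comparisons also share groups: each group enters 2 of the 3.

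**Figure D2:**
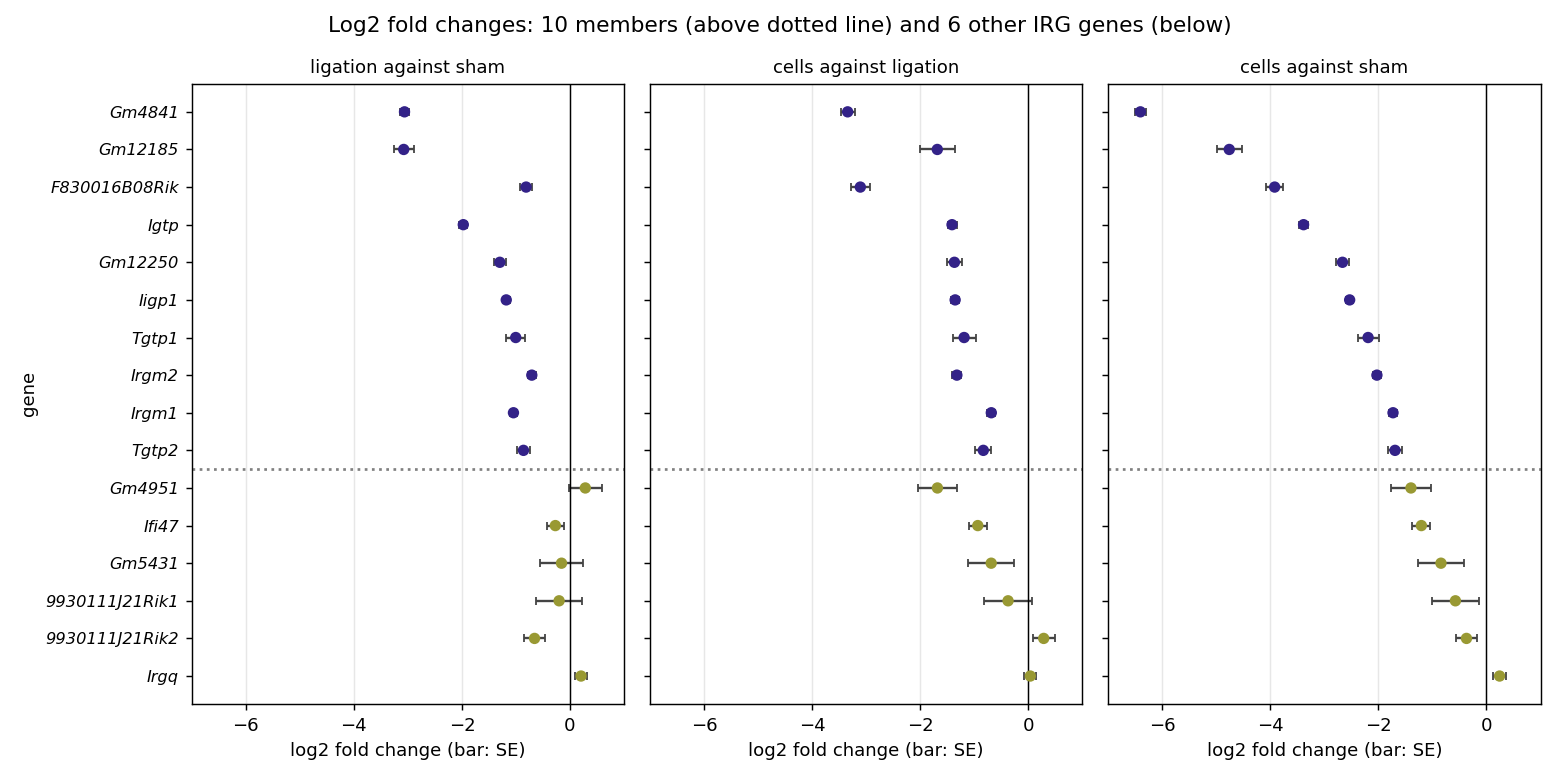
Log2 difference (points, bars show the SE) of the 10 IRG members above the dotted line and of 6 other IRG genes below it, 1 panel per comparison. All 30 member values lie below 0, from -0.68 for Irgm1 in cells against ligation to -6.40 for Gm4841 in cells against sham, while the other IRG genes lie on both sides of 0 in each comparison.

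The 3 IRGM regulators all fell at both steps, from sham to ligation and from ligation to cells, but by different amounts. These steps compare different groups of hearts and do not stand for times. Igtp, also named Irgm3 and known from the endoplasmic reticulum, measured 304, 339 and 346 CPM in sham, 90.6, 76.0 and 86.1 CPM in ligation, and 28.4, 33.2 and 33.3 CPM in the cells group. The highest ligation library lay far under the lowest sham library, and the cells libraries lay lower again. The log2 difference was -1.97 (SE 0.0729) from sham to ligation and -1.41 (SE 0.0833) from ligation to cells. Irgm1, which acts on the Golgi, lysosomes and mitochondria and is needed for resistance to mycobacteria, measured 124, 121 and 127 CPM in sham, 59.0, 64.1 and 56.9 CPM in ligation, and 34.3, 37.5 and 40.3 CPM in the cells group. Its log2 difference was -1.05 (SE 0.0696) and then -0.68 (SE 0.0762), and from sham to cells it was -1.73 (SE 0.0725). Irgm2, a regulator found at the Golgi, measured 120, 123 and 123 CPM in sham, 67.3, 76.0 and 80.0 CPM in ligation, and 29.8, 27.3 and 32.8 CPM in the cells group. In contrast to Irgm1 its larger difference was the one between ligation and cells, with -0.71 (SE 0.0718) from sham to ligation and -1.32 (SE 0.0810) from ligation to cells. Of the 3 regulators, Igtp thus had the widest range and Irgm1 the narrowest.

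The effectors with a described function fell at both steps too. Iigp1, also named Irga6 and among the first proteins to load onto Toxoplasma vacuoles, measured 283, 279 and 306 CPM in sham, 135, 128 and 121 CPM in ligation, and 53.9, 45.1 and 51.3 CPM in the cells group. Its log2 difference was -1.18 (SE 0.0648) and then -1.35 (SE 0.0710), so both steps were of like size. Gm12250, the gene of the effector Irgb10 that attacks the membranes of vacuoles and bacteria, measured 49.3, 45.6 and 49.7 CPM in sham, 22.2, 17.7 and 19.5 CPM in ligation, and 6.67, 8.74 and 7.35 CPM in the cells group. It too had steps of like size, -1.30 (SE 0.108) and -1.37 (SE 0.137). Tgtp1 and Tgtp2 both encode Irgb6, an effector that binds lipids of the vacuole membrane. Tgtp2 measured 46.6, 44.5 and 44.9 CPM in sham, 29.8, 21.3 and 24.8 CPM in ligation, and 14.0, 10.8 and 17.3 CPM in the cells group. Tgtp1, lower than Tgtp2 also per kb of exon in each group, measured 19.2, 23.7 and 16.7 CPM in sham, 11.5, 10.6 and 8.13 CPM in ligation, and 4.96, 4.58 and 3.46 CPM in the cells group. Their log2 differences were -0.86 (SE 0.127) and -0.83 (SE 0.144) for Tgtp2, and for Tgtp1 sham was 2.01-fold above ligation (SE 0.173 on the log2 scale) and the second difference -1.19 (SE 0.213). With the reads of both summed into 1 feature, which removes the split between the copies, the differences were -0.90 and -0.93.

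The steepest gradients belonged to Gm4841, F830016B08Rik and Gm12185, relatives of Iigp1 and Tgtp whose own functions are little described. Gm4841 measured 287, 273 and 294 CPM in sham, 29.2, 34.1 and 37.8 CPM in ligation, and 3.12, 3.61 and 3.31 CPM in the cells group. Sham was thus 8.35-fold above ligation, ligation 10.1-fold above cells and sham 84.6-fold above cells, with log2 differences of -3.06 (SE 0.0757), -3.34 (SE 0.127) and -6.40 (SE 0.105). F830016B08Rik measured 64.8, 63.3 and 67.5 CPM in sham, 27.5, 42.1 and 39.9 CPM in ligation, and 4.11, 3.33 and 5.47 CPM in the cells group. Most of its difference fell in the second step, with -0.81 (SE 0.115) from sham to ligation and -3.11 (SE 0.170) from ligation to cells. Gm12185 measured 24.0, 23.9 and 22.5 CPM in sham, 3.41, 2.46 and 2.63 CPM in ligation, and 0.851, 0.694 and 1.01 CPM in the cells group, where 6, 5 and 7 reads stand behind the values. It went the other way, with its larger difference in the first step, -3.08 (SE 0.188), and -1.68 (SE 0.323) in the second.

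**Figure D3:**
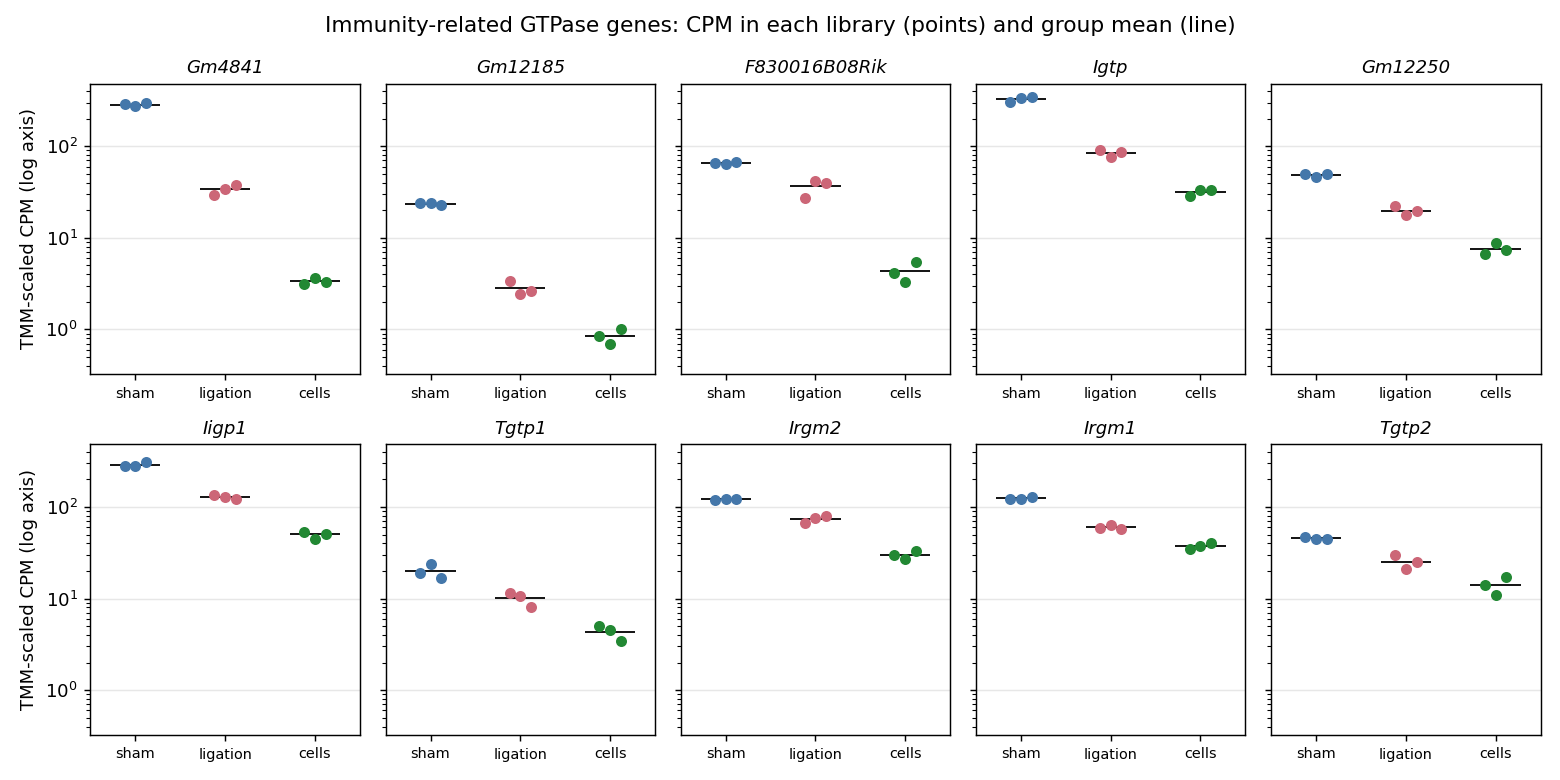
CPM (log axis) of each of the 10 IRG members in every library (points, coloured by group) with the group mean as a line. In every panel the groups are ordered sham, ligation, cells without overlap, and Gm4841 spans the widest range, from 273 to 294 CPM in sham down to 3.12 to 3.61 CPM in the cells group.

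The make-up of the family's RNA shifted with its size. Gm4841 gave 21.1% ± 0.607 of the summed CPM in sham, 7.10% ± 0.894 in ligation and 1.83% ± 0.203 in the cells group (SD, n = 3 each). Irgm1 went the opposite way, from 9.16% ± 0.159 to 12.6% ± 0.846 and 20.4% ± 1.21. Irgm2 rose in share from 9.04% ± 0.222 to 15.7% ± 1.35 and was at 16.3% ± 0.607 in the cells group. Iigp1 made up 21.4% ± 0.526 in sham, 27.0% ± 1.47 in ligation and 27.3% ± 2.27 in the cells group, where it was the largest part. F830016B08Rik had its highest share in the middle group, 7.69% ± 1.67, against 4.82% ± 0.0838 in sham and 2.33% ± 0.448 in the cells group. Igtp made up 24.4% ± 1.22 in sham, 17.7% ± 1.51 in ligation and 17.2% ± 1.62 in the cells group, so the regulators did not move alike in share.

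Levels of different genes were compared per kb of annotated exon, stretches shared with other genes included. The ranks of Tgtp1, Tgtp2 and Gm12185 are therefore uncertain. In sham the order was Igtp (163 CPM per kb), Gm4841 (100.3), Iigp1 (49.7), Gm12250 (37.8), Irgm2 (33.1), Irgm1 (21.3), F830016B08Rik (19.8), Tgtp2 (15.4), Tgtp1 (6.20) and Gm12185 (4.20 CPM per kb), and no neighbours in that order overlapped. In ligation Igtp (41.7 CPM per kb) still led, followed by Iigp1 (22.0) and Irgm2 (20.2), which overlapped each other, Gm12250 (15.5), Gm4841 (11.9), F830016B08Rik (11.1), Irgm1 (10.3), Tgtp2 (8.61), Tgtp1 (3.14) and Gm12185 (0.507 CPM per kb). From Gm4841 to Tgtp2 each neighbour there overlapped the next. In the cells group the order was Igtp (15.6 CPM per kb), Iigp1 (8.60), Irgm2 (8.13), Irgm1 (6.43), Gm12250 (5.95), Tgtp2 (4.78), Tgtp1 (1.35), F830016B08Rik (1.31), Gm4841 (1.18) and Gm12185 (0.152 CPM per kb). Overlaps joined Iigp1 with Irgm2, Irgm1 with Gm12250, Gm12250 with Tgtp2, Tgtp1 with F830016B08Rik, and F830016B08Rik with Gm4841. Igtp was first and Gm12185 last in all 3 groups, and Gm4841 moved from rank 2 in sham to rank 5 in ligation and rank 9 in the cells group.

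The members ran closely together over the libraries. Pearson's r of log2 CPM between members, over the 9 libraries and 45 pairs, ran from 0.863 to 0.994 with a median of 0.964. These libraries fall into 3 groups that differ, and every pair shares them. By the same measure, 5 of 13785 other genes were most like the members' mean profile. They were Gbp4, a guanylate-binding protein (r = 0.997), Neat1, a nuclear long non-coding RNA (0.997), Xdh, xanthine dehydrogenase (0.995), Slc43a3, a purine base transporter (0.992), and Mgl2, a lectin of macrophages and dendritic cells (0.991). Neat1 averaged 811 ± 31.6 CPM in sham, 469 ± 15.1 CPM in ligation and 271 ± 14.1 CPM in the cells group (SD, n = 3 each). Mgl2 averaged 17.8 ± 1.51, 7.66 ± 0.296 and 3.16 ± 0.366 CPM, and Xdh 323 ± 11.4, 210 ± 6.52 and 138 ± 6.61 CPM. Slc43a3 was at 184 ± 1.09, 152 ± 3.91 and 120 ± 3.05 CPM; with library totals in place of TMM its call in ligation against sham was lost (log2 -0.09).

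A second list held 8 other genes of the family. Of these, 7 matched a gene ID and 6 were tested. In ligation against sham 1 of 6 was called lower and 0 higher, with a median log2 difference of -0.18, a count near the 18.0% of all tested genes called lower there. In cells against ligation 2 of 6 were lower and 0 higher (median -0.53), where 5.69% of all were lower, and in cells against sham 2 of 6 were lower and 0 higher (median -0.71), where 20.0% were lower. Ifi47, also named Irgd, measured 25.5, 21.4 and 19.8 CPM in sham, 16.4, 20.1 and 18.3 CPM in ligation, and 12.2, 9.71 and 6.91 CPM in the cells group. It fell from ligation to cells (log2 -0.93, SE 0.170, edgeR adjusted p = 0.000842), and from sham to cells (log2 -1.20, SE 0.167, edgeR adjusted p = 6.85e-06). Its difference from sham to ligation was -0.27 (SE 0.154, edgeR adjusted p = 0.182). Gm4951, which neighbours Gm4841, fell from ligation to cells as well, from 4.18 ± 1.06 to 1.28 ± 0.514 CPM (log2 -1.68, SE 0.355, edgeR adjusted p = 0.00339), and was at 3.38 ± 0.373 CPM in sham (ligation against sham 0.28, SE 0.311, edgeR adjusted p = 0.510). Whether these first steps differ from those of the members was not tested.

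9930111J21Rik2 fell from 17.7 ± 4.85 CPM in sham to 11.4 ± 1.85 CPM in ligation (SD, n = 3 each; log2 -0.66, SE 0.202, edgeR adjusted p = 0.0140) and was at 13.7 ± 3.60 CPM in the cells group. That call was lost without sham replicate 2 (log2 -0.42), without ligation replicate 3 (log2 -0.53) and with library totals in place of TMM (log2 -0.47), and 69.5% of the gene's 31-base stretches occur in other genes. Its near copy 9930111J21Rik1, with 88.3% shared, was at 3.47 ± 2.57, 3.05 ± 1.13 and 2.37 ± 0.696 CPM and passed in no comparison. Gm5431 was at 2.20 ± 0.674, 1.97 ± 0.424 and 1.23 ± 0.596 CPM and passed in none either. Irgq, a distant relative that interferon is not known to induce, was at 26.3 ± 2.02, 30.4 ± 3.20 and 31.2 ± 4.60 CPM, with log2 differences of 0.20 (SE 0.117, edgeR adjusted p = 0.186) and 0.04 (SE 0.113, edgeR adjusted p = 0.886). With library totals Irgq was called higher in ligation against sham (log2 0.39, edgeR adjusted p = 0.0105), so that 1 of the 6 other IRG genes was higher there and 0 lower. In cells against sham 1 of the 6 was then higher and 2 lower. The IRG genes outside the 10 members thus held genes with and without a lower level in the cells group.

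Genes that lie beside the members and are on neither list of IRG genes were counted as well. Within 250 kb of the 3 clusters, 10, 9 and 5 such genes were tested. In ligation against sham 5, 4 and 1 of them were called lower and 1, 1 and 2 higher, which over the 24 genes is 41.7% lower where 18.0% of all tested genes were. In cells against ligation 0, 0 and 1 were lower and 0, 0 and 1 higher, or 4.17% lower over the 24, near the 5.69% of all tested genes. In cells against sham 4, 3 and 1 were lower and 1, 1 and 3 higher, or 33.3% lower where 20.0% of all were. The 1 gene called lower beside the cluster of Gm4841, named after its values were seen, was BC023105, which GENCODE calls a processed pseudogene. It fell from 57.9 ± 4.75 CPM in sham to 30.1 ± 2.03 CPM in ligation and 4.11 ± 1.36 CPM in the cells group (SD, n = 3 each; log2 -0.95, SE 0.108, and -2.86, SE 0.158). Its sequence overlaps that of a member: 12.3% of the 31-base stretches of Gm4841 occur in it. Whether BC023105 belongs to the family was not examined.

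**Figure D4:**
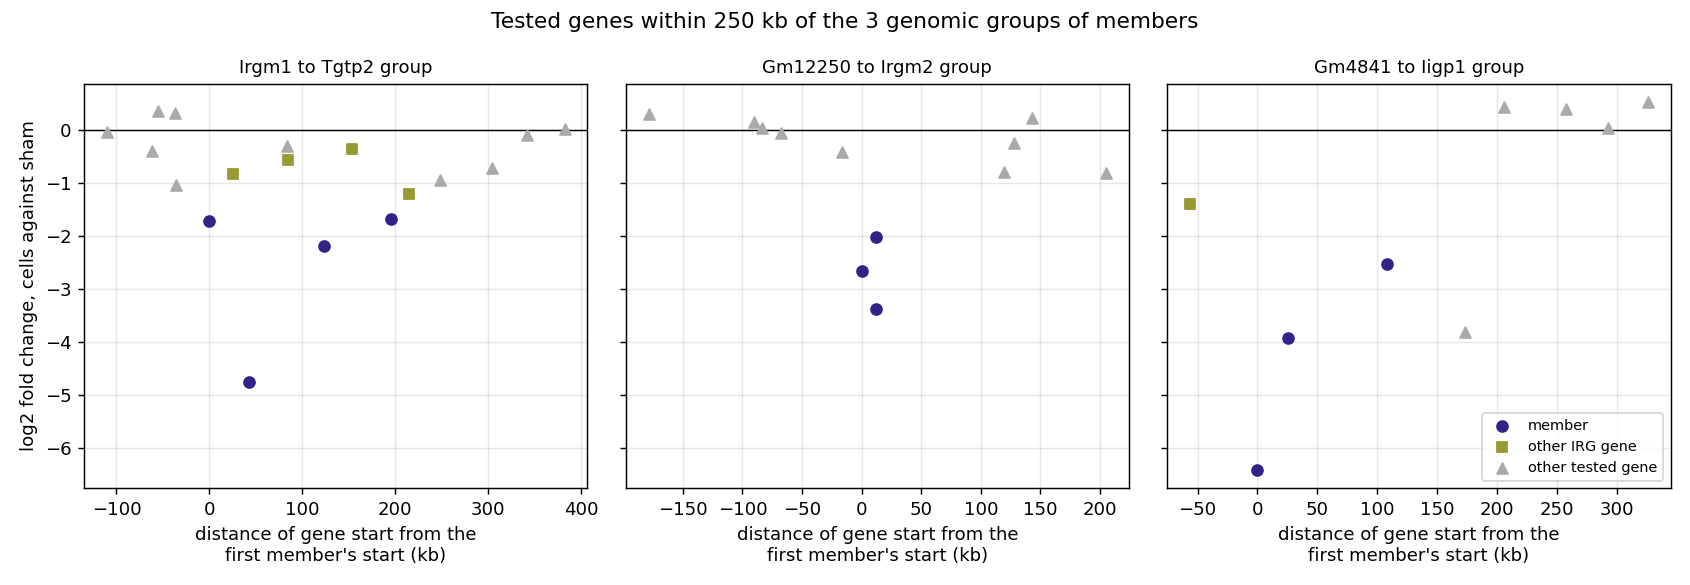
Log2 difference of cells against sham for each tested gene in and within 250 kb of the 3 IRG clusters, by the distance in kb of its start from that of the cluster's first member, with members as circles, other IRG genes as squares and remaining genes as triangles. The members lie between -1.69 and -6.40, and among the triangles BC023105, at -3.81, is the lowest, with all others at -1.05 or above.

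The pathway that induces the family was examined next. Its gene lists were drawn up from textbook knowledge but with earlier results of these libraries known. Il15, Il18r1, Il18, Gbp10, Gbp4, Ciita, H2-Eb1 and Ido1 are named because their differences were among the largest called, so they do not stand for their lists. Of 24 genes of type II interferon signalling, 19 were tested. In ligation against sham 7 were higher and 4 lower (median 0.07; 7 were called in all with DESeq2), in cells against ligation 0 were higher and 6 lower (median -0.05), and in cells against sham 5 were higher and 8 lower (median -0.15). Of all tested genes, 20.1% were higher and 18.0% lower in ligation against sham. The shares were 4.19% and 5.69% in cells against ligation, and 21% and 20.0% in cells against sham. The 4 lower of 19 in ligation against sham and the 5 higher in cells against sham lie near those shares. Ifng, the ligand, had 1 read, in ligation replicate 3, and 0 in the other 8 libraries, which lies under the floor of 0.375 to 0.639 CPM. Ifngr1, the binding chain of its receptor, was at 89.3 ± 4.64 CPM in sham, 94.0 ± 7.10 CPM in ligation and 78.4 ± 0.324 CPM in the cells group. Its decrease from ligation to cells (log2 -0.26, SE 0.0677, edgeR adjusted p = 0.0167) was lost with DESeq2 and without ligation replicate 2, cells replicate 1 or cells replicate 3. Ifngr2, the signalling chain, was at 116 ± 8.76, 131 ± 1.91 and 147 ± 5.53 CPM and rose from sham to the cells group (log2 0.34, SE 0.0616, edgeR adjusted p = 0.000145).

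Downstream of the receptor, Irf1 fell at both steps. This transcription factor, which interferon-gamma induces, measured 55.9, 61.8 and 65.2 CPM in sham, 41.5, 48.0 and 42.0 CPM in ligation, and 30.4, 28.9 and 35.1 CPM in the cells group. It fell by 0.47 (SE 0.0889, edgeR adjusted p = 0.000237) and then by 0.48 (SE 0.0941, edgeR adjusted p = 0.00162) on the log2 scale. Il15, a cytokine that supports natural killer cells, fell at the first step, from 16.9 ± 2.43 to 4.84 ± 0.324 CPM (log2 -1.80, SE 0.185, edgeR adjusted p = 1.24e-07), and was at 5.53 ± 0.832 CPM in the cells group. Il18r1, a receptor chain for interleukin 18, rose from 0.517 ± 0.483 CPM in sham, near the floor, to 2.08 ± 0.615 CPM in ligation (log2 1.96, SE 0.540, edgeR adjusted p = 0.00655). The cytokine Il18 itself rose from 0.613 ± 0.342 to 2.07 ± 0.992 CPM (log2 1.76, SE 0.581, edgeR adjusted p = 0.0211), a call lost with DESeq2 and without sham replicate 1, sham replicate 3 or ligation replicate 3.

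Other interferon-gamma targets were mostly lower as well. Of all tested genes, 18.0% were lower in ligation against sham, 5.69% in cells against ligation and 20.0% in cells against sham. Of 10 tested guanylate-binding proteins, GTPases that act on the same vacuoles, 8 were lower in ligation than in sham and 0 higher (median -0.87), 9 were lower in cells than in ligation and 0 higher (median -0.78), and 10 were lower in cells than in sham and 0 higher (median -1.55). Gbp10 fell from 11.2 ± 0.129 to 4.39 ± 0.629 and 0.854 ± 0.387 CPM, by -1.37 (SE 0.228) and -2.32 (SE 0.338) on the log2 scale. Gbp4 fell from 139 ± 5.83 to 59.8 ± 6.66 and 23.0 ± 1.71 CPM, by -1.22 (SE 0.0757) and -1.37 (SE 0.0890). Of 19 tested genes of antigen presentation and interferon-gamma chemokines, 3 were higher and 12 lower in ligation against sham (median -0.55), 0 higher and 15 lower in cells against ligation (median -0.55), and 0 higher and 19 lower in cells against sham (median -1.15). H2-Eb1, a chain of MHC class II, went up and then down, at 66.3 ± 5.99, 119 ± 5.06 and 30.8 ± 4.85 CPM (log2 0.85, SE 0.0847, then -1.95, SE 0.0909). Ciita, the master activator of MHC class II, was at 4.12 ± 0.282, 6.14 ± 1.81 and 1.41 ± 0.115 CPM and fell at the second step (log2 -2.14, SE 0.307). Ido1, which degrades tryptophan, fell from 3.36 ± 0.834 CPM in sham to 0.430 ± 0.432 CPM in the cells group (edgeR adjusted p = 0.000341). The cells libraries hold 3, 0 and 6 reads of it, at the floor on average, so the fitted log2 difference of -2.92 (SE 0.572) is uncertain in size.

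For type I interferon signalling and the conjugation machinery the counts stand beside those of all tested genes, of which 20.1% were higher and 18.0% lower from sham to ligation, 4.19% and 5.69% from ligation to cells, and 21% and 20.0% from sham to cells. Of 19 tested genes of type I interferon signalling, 3 were higher and 4 lower in ligation against sham (median -0.12), 0 higher and 4 lower in cells against ligation (median -0.21), and 0 higher and 7 lower in cells against sham (median -0.32). In ligation against sham that is close to the share of all tested genes. The count for cells against ligation fell to 2 with DESeq2, to 1 without ligation replicate 2 and to 2 without cells replicate 1. Of 15 tested genes of the ubiquitin-like conjugation system that places IRG proteins on membranes, such as Atg5 and Atg7, 3 were higher and 4 lower in ligation against sham (median 0.02), 0 were higher and 0 lower in cells against ligation (median -0.03), and 6 were higher and 5 lower in cells against sham (median 0.17).

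**Figure D5:**
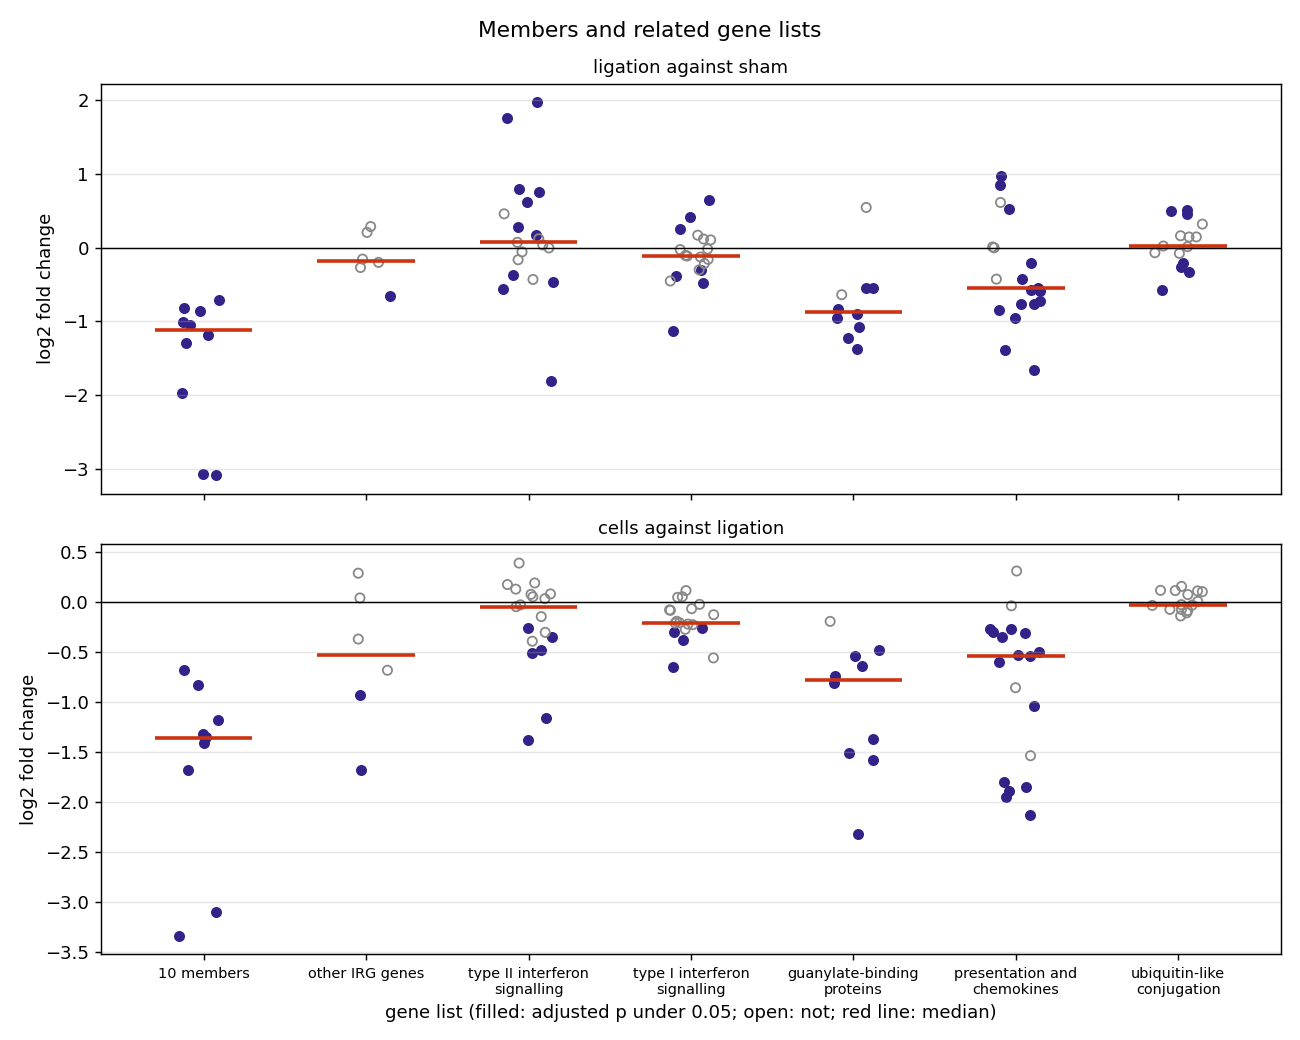
Log2 difference of each tested gene (points, filled where the adjusted p is under 0.05) of the IRG members and of 6 pathway lists, with the list median as a red line, for ligation against sham (top) and cells against ligation (bottom). The red lines stand at -1.11 and -1.36 for the members, which were selected on these contrasts, at -0.87 and -0.78 for the guanylate-binding proteins and at -0.55 and -0.55 for the presentation and chemokine list.

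Cell type markers moved between the same groups. Beside their counts, 20.1% of all tested genes were higher and 18.0% lower from sham to ligation. The shares were 4.19% and 5.69% from ligation to cells, and 21% and 20.0% from sham to cells. All 10 macrophage markers were tested, and their summed level was 692 to 747 CPM in sham, 1235 to 1263 CPM in ligation and 511 to 528 CPM in the cells group. Of the 10, 8 were higher in ligation against sham, 10 were lower in cells against ligation and 7 were lower in cells against sham. Lyz2 was the largest part of that sum, at 282 ± 13.8, 618 ± 19.3 and 261 ± 6.66 CPM, while Mertk, at 21.8 ± 2.40, 16.3 ± 2.84 and 10.4 ± 2.69 CPM, was highest in sham, and Mrc1 overlapped between sham and ligation. Summed neutrophil markers were at 37.9 to 45.2, 14.5 to 20.98 and 5.76 to 6.80 CPM, with 2 of 4 tested lower in ligation against sham, 3 of 4 in cells against ligation and 4 of 4 in cells against sham. Most of the sham sum was S100a8, at 14.5 ± 1.40, 3.69 ± 0.937 and 1.93 ± 0.485 CPM, and S100a9, at 19.0 ± 1.93, 4.96 ± 1.06 and 2.02 ± 0.414 CPM. Csf3r was higher on average in ligation, at 4.14 ± 1.19, 6.34 ± 2.30 and 1.61 ± 0.668 CPM, and Cxcr2 and Retnlg overlapped between sham and ligation. Summed dendritic cell markers were at 45.2 to 54.0, 33.9 to 39.3 and 28.7 to 34.0 CPM, with 1 of 3 tested higher and 1 lower in ligation against sham and 0 called in cells against ligation. Most of that sum was Zbtb46, at 42.9 ± 3.82, 26.8 ± 0.763 and 24.7 ± 1.27 CPM, while Itgax rose from 0.552 ± 0.233 CPM in sham to 2.10 ± 0.783 CPM in ligation. Summed endothelial markers were at 1868 to 1973, 1242 to 1310 and 1369 to 1409 CPM, with 6 of 6 lower in ligation against sham and 2 of 6 higher in cells against ligation. Fibroblast markers summed to 1562 to 1603, 2394 to 2470 and 2334 to 2406 CPM, with 4 of 6 higher and 1 lower in ligation against sham and 1 of 6 lower in cells against ligation. Cardiomyocyte markers, high in every library of this heart tissue, summed to 45724 to 47104, 35406 to 37914 and 34588 to 36071 CPM. Of 8 tested, 2 were higher in ligation against sham, Nppa (log2 3.06) and Ryr2 (log2 0.36), and 5 lower, and in cells against ligation 1 was higher and 1 lower.

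Lymphocyte markers summed to a few CPM at most in every group. The 6 T cell markers summed to 1.75 to 2.49 CPM in sham, 1.74 to 3.20 CPM in ligation and 0.993 to 1.66 CPM in the cells group, with Cd3d at 0 in all 9 libraries and Cd4 at 12, 10 and 10 reads in ligation. Ms4a1, which defines B cells, was at 0 in all 9, and 5 B cell markers summed to at most 1.25 CPM. The 8 markers of natural killer cells and innate lymphocytes, main sources of interferon-gamma in a mouse without T cells, summed to 1.25 to 1.90, 1.92 to 3.91 and 0.567 to 1.11 CPM. The part of any of these cell types in the IRG differences was not tested.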

How the data were processed

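The authors deposited unnormalized counts of reads for each gene in each library. Per the labels' protocols, TRIzol was used for RNA extraction and the NEBNext Ultra kit for the libraries. The genome build is mm10 per the submitters' processing notes, while aligner, counter, strand setting and annotation release are not given in the sources used here. Symbols came from GENCODE M21 for 53274 of 53465 gene IDs, and summary lines that name no gene were left out. Each library was checked against the others of its group, and all pairs differed by more than sampling noise.

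One edgeR (4.0.16) quasi-likelihood fit of all 9 libraries (R 4.3.3), with filterByExpr, TMM factors and group as the only term, tested 13825 genes with 6 residual degrees of freedom and Benjamini-Hochberg adjustment over all of them. SE is that of the log2 difference. The script was tested on simulated data.

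The members and gene lists were chosen with earlier results of these data known. Named were all members, all other IRG genes, Ifng, Ifngr1, Ifngr2 and Irf1, the 3 called list genes with the largest log2 difference per comparison at a mean of at least 1 CPM, and the 5 genes most alike in profile. Alternatives were edgeR's RLE factors, library totals alone, no filter on low counts, a mean of at least 1 CPM, DESeq2 (1.42.0), fits of the 2 groups compared, a replicate block, each library left out, Tgtp1 and Tgtp2 summed and, added after seeing the data, libraries with a shared header stem summed. Some items that the rule names are not reported here.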

Additional observations from a re-analysis of the deposited data

How the results depend on the processing

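Over 18 alternatives, 9 of which leave out 1 library, all 537 member values kept their direction and their side of the threshold. With library totals in place of TMM, the median of all genes moved to 0.20 from sham to ligation and 0.15 from sham to cells, and calls split 4966 higher to 1346 lower and 4612 higher to 1698 lower, against 2783 to 2494 and 2899 to 2762 with TMM. In cells against ligation that split was 436 to 927 against 579 to 786. The member nearest to 0 then stood 0.71 below the median of all genes in ligation against sham, 0.68 in cells against ligation and 1.68 in cells against sham. Replicate numbers did not pair libraries (correlations of deviations from -0.0537 to 0.0586), and with a replicate block 10 of 10 members were called in each comparison, and 5134, 1230 and 5511 genes in all.

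Directions changed for some genes in comparisons where they were not called. Gm5431 was at 0.0309 in ligation against sham with library totals. Leaving out 1 library at a time, 9930111J21Rik1 ran from -0.56 to 0.58 in ligation against sham and from -0.93 to 0.20 in cells against sham, Irgq from -0.0846 to 0.126 and Il18 from -0.98 to 0.11 in cells against ligation. Adar ran from -0.000142 to 0.149, from -0.125 to 0.0510 and from -0.0582 to 0.122 in the 3 comparisons, and was at -0.000207 in cells against sham with header stems summed. The cause was not tested. At 5 to 7 reads per library, depth limits Gm12185 in the cells group.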
